A study of Mus musculus with 2 samples.

Results

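The genes described are 8 epidermal kallikreins (Klk4, Klk5, Klk6, Klk7, Klk8, Klk10, Klk11 and Klk14) and Spink5, which encodes an inhibitor of several of them. They were chosen by name, as every non-control probe whose RefSeq accession maps to one of these genes, which gave 11 probes for 9 of the 18217 genes that could be named on the array. Klk7 had 3 probes and each other gene had 1, and every one of these probes had a single spot. Expression was measured in epidermis peeled from mouse skin in the steady state, on 2 one-colour Agilent arrays. The control array held RNA of Nfkbiz flox/flox epidermis. The knockout array held RNA of Nfkbiz flox/flox epidermis that also carried K5-cre. There the keratin 5 promoter, active in basal keratinocytes, makes the recombinase, and both groups carry the floxed alleles. Nfkbiz encodes the nuclear IκB protein IκBζ. Epidermal cells that do not descend from cells with an active keratin 5 promoter, such as immune cells, are not targeted by this transgene. The number, age and sex of the mice are not given in the sources used here. With 1 array per genotype there was no replicate spread, no test was made and no difference below has a replicate check.

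Tissue kallikreins are secreted serine proteases that are made as inactive precursors and switched on by cleavage. In the outer epidermis a cascade of them cuts the corneodesmosomes that hold dead cells together, so that the cells can be shed, and the inhibitor encoded by Spink5 (LEKTI) restrains it. Loss of LEKTI in people causes Netherton syndrome, a disease of scaling and inflamed skin. IκBζ works with the NF-κB subunit p50 at a subset of NF-κB target genes and takes part in keratinocyte responses to IL-17A and IL-36.

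Most of these genes lay close together in control and knockout epidermis. Of the 9 genes, 8 were measured on both arrays, that is, their signals were well above background and not saturated. Klk4 was 10.7-fold higher on the knockout array, and 5 of the 47 spots around the Klk4 spot were at least 4-fold higher too. The other 7 measured genes were within 2-fold, with log2 differences from -0.41 to 0.15. Klk14 was not well above background on either array. All differences are knockout minus control, on the log2 scale, after each array's signals were divided by their 75th percentile, which was 205 for the control and 239 for the knockout array. A gene was called by size at 2-fold. Of the 12397 named genes measured on both arrays, 3.02% were past 2-fold upwards in knockout epidermis and 4.40% past it downwards, and among the 8 measured members 1 was higher and none lower.

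The stretches upstream of 3 kallikreins are printed because Klk4 is the 1 member past 2-fold and because Klk10 and Klk11 carry the letters of the NF-κB consensus there. They are the 250 bases before an annotated transcript start, from RefSeq on GRCm38.p6, all on the plus strand of chromosome 7, at chr7:43880910-43881159 for Klk4, chr7:43780804-43781053 for Klk10 and chr7:43776079-43776328 for the second annotated start of Klk11. Capitals mark matches to TATAA or to the NF-κB consensus on either strand.
Klk4: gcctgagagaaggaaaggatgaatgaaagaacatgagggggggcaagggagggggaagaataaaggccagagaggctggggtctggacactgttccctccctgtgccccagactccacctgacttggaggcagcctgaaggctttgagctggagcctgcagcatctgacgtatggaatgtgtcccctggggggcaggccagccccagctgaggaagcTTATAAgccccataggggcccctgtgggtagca
Klk10: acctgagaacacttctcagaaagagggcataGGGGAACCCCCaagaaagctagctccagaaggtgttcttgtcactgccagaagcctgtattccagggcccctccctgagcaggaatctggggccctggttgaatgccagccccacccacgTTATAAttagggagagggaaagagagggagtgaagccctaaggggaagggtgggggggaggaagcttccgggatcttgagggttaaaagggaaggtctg
Klk11: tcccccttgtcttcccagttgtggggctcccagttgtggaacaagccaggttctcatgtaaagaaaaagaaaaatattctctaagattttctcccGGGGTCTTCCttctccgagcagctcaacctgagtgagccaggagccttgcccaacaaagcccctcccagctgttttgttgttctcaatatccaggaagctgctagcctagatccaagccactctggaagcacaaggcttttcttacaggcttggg

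Promoter entries were found for 8 of the 9 genes, with 10 windows in all. TATAA, searched on both strands, was in 2 of the 10 windows, from 2 genes. In Klk4 it lay 32 to 28 bases before the start and overlapped a match on the other strand, and Klk10 was the other gene. It was in 22.8% of the 32851 windows of the same length in the table. The NF-κB consensus was matched in 2 windows, those printed for Klk10 and Klk11, where the Klk10 matches overlap one another, and in 7.25% of all windows. The AP-1 motif TGANTCA matched none of the 10 windows and 6.75% of all windows. The GC box GGGCGG matched 4 of the 10 windows, from 3 genes, Klk6, Klk7 and Klk8, and 32.7% of all windows. A match is a description of these letters and no evidence of binding.

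The targeted gene was lower on the knockout array. Nfkbiz, read by 1 probe, had signals of 3100 in control and 1760 in knockout epidermis, a log2 difference of -1.04 ± 0.20. Errors after ± are standard errors from the scanner software's error model, which covers technical error only and leaves out any spread between mice. The sources used here do not say where this probe lies relative to the deleted exons, and a probe outside them would not read the deletion itself.

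The proteases that start and carry out shedding were within 2-fold. Klk5 encodes a trypsin-like protease that can activate itself and other kallikreins. Its signal was 4640 in control and 5240 in knockout epidermis, a log2 difference of -0.05 ± 0.20 after scaling. Klk7 encodes the chymotrypsin-like protease that cuts corneodesmosin and desmocollin 1. Its brightest probe read 26900 in control and 30100 in knockout epidermis, a difference of -0.06 ± 0.20. A second Klk7 probe read 2830 and 3230, with a difference of -0.03 ± 0.20. The remaining Klk7 probe read 17300 and 12200 and differed by -0.73 ± 0.20, so it alone was dimmer on the knockout array before scaling. The 3 probes spanned 0.69 in log2. Among the 731 genes with 3 probes measured on both arrays, the median span was 0.49, and 30.0% spanned at least as much as Klk7. Klk14, a trypsin-like protease that also acts in this cascade, had signals of 9.07 and 2.86, below the lowest signals well above background (12.7 for the control and 12.1 for the knockout array), and no fold is given for it.

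**Figure D1:**
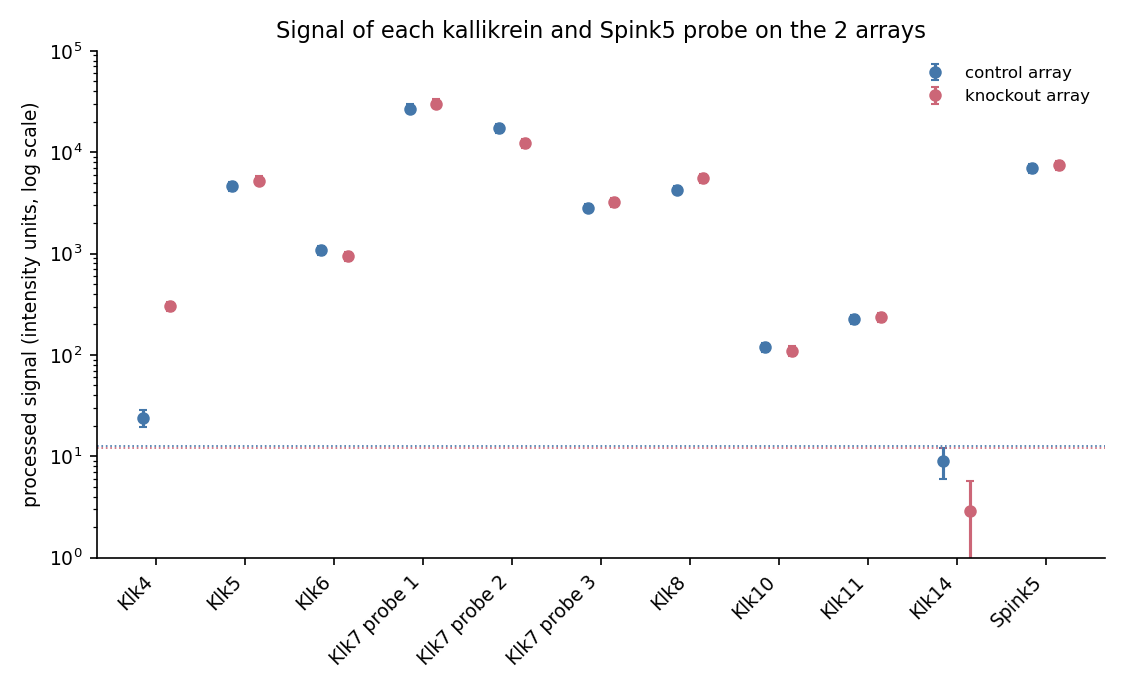
Processed signal of each of the 11 probes on the control array (blue) and the knockout array (red), in intensity units on a log axis, before scaling between arrays. Bars are the scanner software's error and the bar of Klk14 on the knockout array runs below the axis. Dotted lines mark the lowest signal well above background on each array, and Klk14 lies under both. Among the probes above both lines the Klk4 pair is the furthest apart, at 24.1 and 301. Heights of different probes cannot be compared.

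The other epidermal kallikreins differed little. Klk8, a trypsin-like protease of skin and brain also called neuropsin, had signals of 4260 and 5500, a log2 difference of 0.15 ± 0.20, and with this scaling was the only one of these 7 genes above 0. Klk6, a protease also called neurosin, had signals of 1080 and 947 and a difference of -0.41 ± 0.20, the lowest among the measured genes. Klk11, a protease also called hippostasin, had signals of 225 and 235 and a difference of -0.16 ± 0.21. Klk10 had signals of 120 and 110 and a difference of -0.35 ± 0.21. Klk10 and Klk11 have an NF-κB consensus match, Klk11 at its second annotated start only. Both were within 2-fold, like every other measured member but Klk4, and a role of the match was not tested.

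Spink5, which encodes LEKTI, had a signal of 6920 in control and 7430 in knockout epidermis. Its log2 difference was -0.12 ± 0.20 after scaling. The inhibitor and the proteases Klk5 and Klk7 that it restrains differed from one another in log2 difference by less than the error of each, read by their brightest probes. That error was the same 0.20 for each of them, a value set by the scanner model and not a spread measured on these probes.

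The median of the 8 measured genes was -0.09, beside -0.04 for all genes measured on both arrays, and the median of the 7 without Klk4 was -0.12. The lower and upper quartiles of all genes were -0.35 and 0.27, and 6 of the 8 members lay inside that range, all but Klk4 and Klk6. At least as far apart in either direction as Klk6 were 38.2% of all measured genes, and at least as far as Spink5 78.4%. Klk4 was among the genes furthest up, with 7 of 12397 genes, Klk4 included, at or above its log2 difference.

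**Figure D2:**
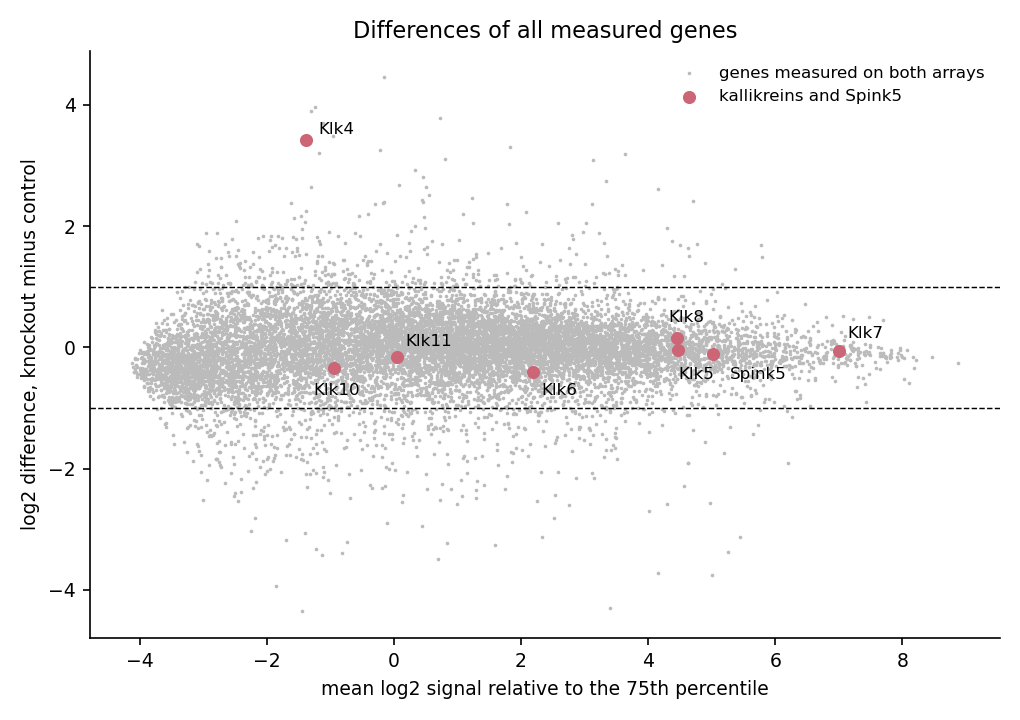
Log2 difference, knockout minus control, of each of the 12397 genes measured on both arrays (grey) against its mean log2 signal relative to the 75th percentile, with the 8 measured members in red. Dashed lines mark 2-fold. Klk4 lies at 3.42 among the dim genes and the other 7 members lie between -0.41 and 0.15 within the main cloud.

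Klk4 encodes a kallikrein best known for degrading matrix proteins in maturing tooth enamel. Its processed signal was 24.1 ± 4.67 in control and 301 ± 30.3 in knockout epidermis, where ± is the scanner software's error. The log2 difference was 3.42 ± 0.32, or 10.7-fold. The control signal lay close to the lowest signal called well above background, 12.7, while the knockout signal was above the 75th percentile of 239. Before background subtraction the median pixel signal of the spot was 72.0 for the control and 284.5 for the knockout array, with local backgrounds of 21 and 23. With normexp background correction, which adds an offset of 50 to every signal, the difference was 1.63.

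Some of the spots around the Klk4 spot were also higher on the knockout array. Of the 47 non-control spots within 3 rows and 3 columns, 5 were 4-fold or more higher in the knockout sample and none as much lower. All 5 lay in the same column as Klk4 or the column beside it and within 2 rows of it, while the 3 spots touching Klk4 in the column on its other side were at -0.40, -0.42 and -0.31. Of the 5 higher spots, 3 read named genes that are not kallikreins: Nxph2 (signals of 4.06 and 75.6), Rfx8 (26.4 and 399) and Irs3 (4.0 and 443). The other 2 were probes without a gene name here (4.07 and 92.3, and 157 and 771). The log2 differences of all 5 ran from 2.07 to 6.57, and the median of the other 42 spots was 0.04. Across the array, 0.941% of the 43379 non-control spots had at least 5 such neighbours, 74.6% had none, and 0.874% of spots were themselves at least 4-fold higher. None of the other 10 probes of these genes had more than 1 neighbour 4-fold higher. The signal gained on the knockout array was 277 at Klk4 and 71.5 to 614 at the 5 neighbours. With the median difference of the adjacent spots subtracted, a setting chosen after the data were seen, Klk4 was at 2.86. Leaving out every gene whose probe had at least 5 such neighbours, also chosen after seeing the data, left none of the members past 2-fold. With 1 Klk4 probe and 1 spot, a difference in Klk4 RNA and a difference at this place of the array cannot be told apart.

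**Figure D3:**
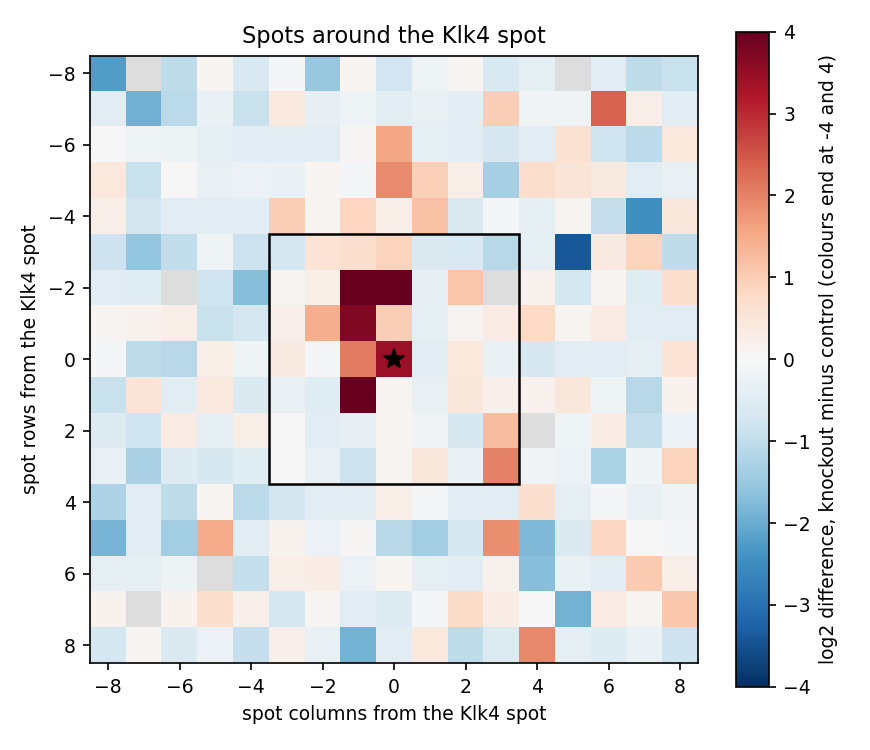
Log2 difference, knockout minus control, of the non-control spots around the Klk4 spot (star), by distance in spot rows and columns, with grey where no such spot lies. The box holds the spots within 3 rows and 3 columns, and the 5 dark red spots beside the star, at 2.07 to 6.57, sit in 2 adjacent columns.

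Klk4 was also set against its neighbours in the kallikrein locus. RefSeq orders 26 protein-coding kallikrein genes along chromosome 7, and 23 of them had a named probe. Klk5, next to Klk4 on one side, was at -0.05, and Klk15, on the other side, was not well above background on either array, with signals of 10.5 and 7.96. Of the 26 genes, 12 were measured on both arrays, 2 on the control array alone and 9 on neither, and 3 had no probe that could be named here. Of the 15 other kallikreins with a probe, 5 were measured on both arrays, with 1 at least 2-fold higher, none lower and a median of -0.51. Klk1b24 was the higher one, at 13.7 and 50.9 (1.67 ± 0.35), and under normexp it was no longer past 2-fold. Klk1b4, measured on the control array alone at 20.8, had 12.1 on the knockout array. It was 2.0-fold lower, with an error of 0.41 in log2. The Klk1b genes are closely related, so a probe may read more than 1 of them, which could not be checked without probe sequences. Klk9, the gene between Klk10 and Klk8, had signals of 934 and 676 and a difference of -0.69 ± 0.20. It is named for its place in the locus after its value was seen, and its spot had 5 neighbours at least 4-fold lower. Without genes that had at least 5 such neighbours in their own direction, Klk9 among them, the median of the other kallikreins was -0.34.

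**Figure D4:**
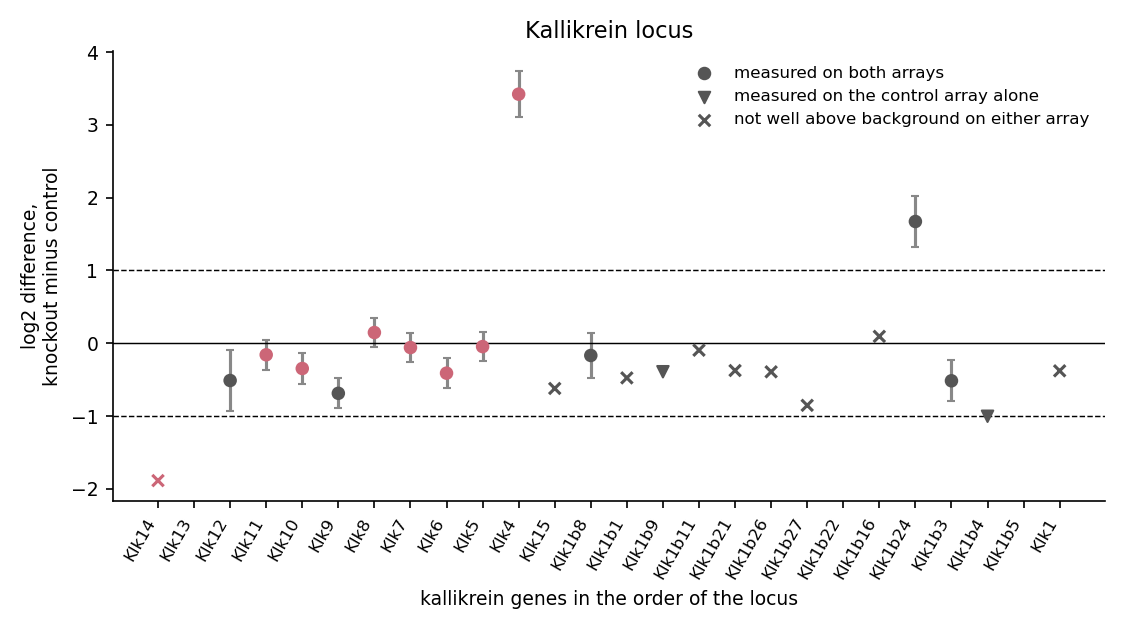
Log2 difference, knockout minus control, of the kallikrein genes in their order along the locus, with members in red and other genes in grey. Bars are standard errors from the scanner software's error model, shown for genes measured on both arrays. Dashed lines mark 2-fold, and of the 12 genes measured on both arrays Klk4 and Klk1b24 are above it and none below.

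Other proteases of the epidermis were mostly within 2-fold. Of 29 with a probe, 24 were measured on both arrays, with none at least 2-fold higher, 1 lower and a median of -0.12. Prss8, which encodes the membrane-anchored protease prostasin needed for the skin barrier, was the lower one, at 847 and 446 (-1.15 ± 0.20), and at -0.83 with median scaling. St14, the gene of matriptase, a protease able to activate kallikrein precursors, had signals of 1820 and 2170 and a difference of 0.03. Like Klk9 it was named after its value was seen.

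Protease inhibitors other than Spink5 included larger differences. Of 31 with a probe, 23 were measured on both arrays, with 3 at least 2-fold lower, none higher and a median of -0.35. Slpi, the secretory leukocyte protease inhibitor, had signals of 1010 and 215 (-2.45 ± 0.20). Serpinb2, plasminogen activator inhibitor 2, had signals of 29100 and 9080 (-1.90 ± 0.20). Spink4, a Kazal-type relative of Spink5, had signals of 79.0 and 35.5 (-1.38 ± 0.25, and -0.68 under normexp). A further relative, Spink6, was measured on the control array alone at 65.5, with 8.63 on the knockout array, and was at least 6.31-fold lower. Wfdc12, a WAP-domain inhibitor, was measured on the knockout array alone at 55.1, with 14.2 on the control array. It was 3.33-fold higher, with an error of 0.43 in log2. Its control signal was above 12.7, the lowest called well above background, so no bound is given. A bound, as for Spink6, sets the bright signal against the lowest signal well above background where the dim signal is lower than that. The list's share of lower genes, 3 of 23, stands beside 4.40% of all genes, and no test of the list was made.

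A list of kallikrein substrates, receptors and related epidermal genes was within 2-fold where measured, with 1 exception. The list is broad and also holds genes such as Krt1, Krt10, Lor and Ivl. Not every gene in it is a known substrate or receptor. Of 23 with a probe, 21 were measured on both arrays, with none at least 2-fold higher, 1 lower and a median of -0.10. The lower one was Dsg3, a desmosomal cadherin of the deep epidermal layers, with signals of 412 and 98.8 (-2.28 ± 0.21). Other genes of the list are named for their roles, after their values were seen. The corneodesmosomal ones were within 2-fold. Cdsn (corneodesmosin) had signals of 5590 and 6070 and a difference of -0.10. Dsc1 (desmocollin 1) had 1490 and 1660 and -0.07. Of the desmoglein 1 genes in the list, Dsg1a had 5470 and 8480 and 0.41, and Dsg1b 330 and 311 and -0.31. F2rl1, the gene of the receptor PAR2 that kallikreins can cleave, had signals of 138 and 102 and a difference of -0.66. F2r, the gene of the related receptor PAR1, had signals of 2250 and 1380 and a difference of -0.93. Tslp, an epithelial cytokine, had 48.9 and 30.5 and -0.90. The cytokine genes Il1a and Il1b of the same list did not share so low a value, at 0.57 (67.5 and 117) and -0.14 (120 and 126).

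**Figure D5:**
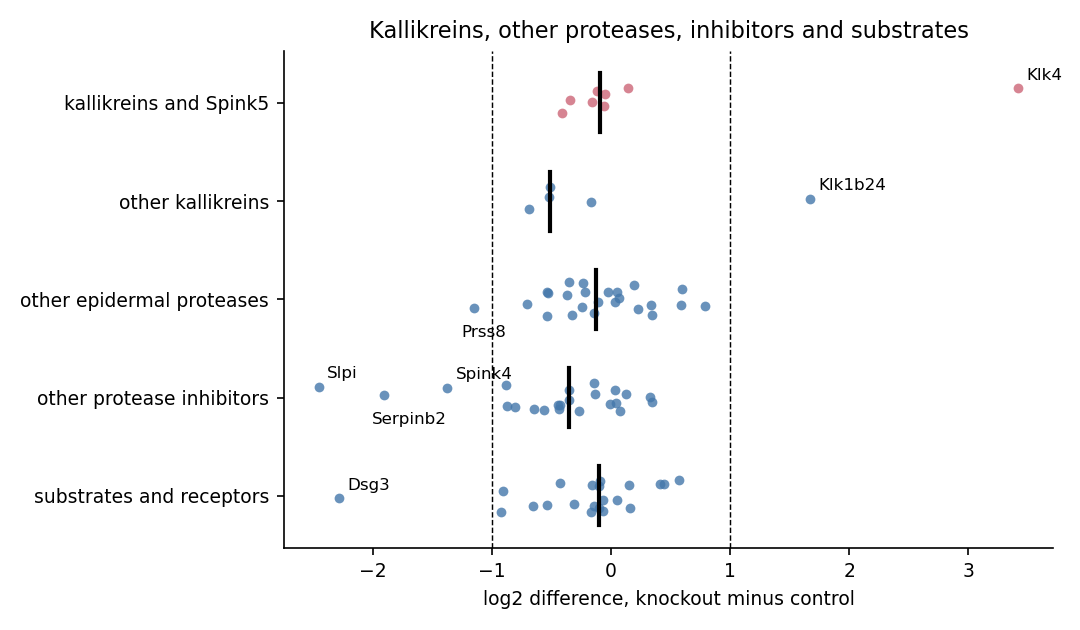
Log2 difference, knockout minus control, of the genes measured on both arrays in each of 5 lists, 1 point per gene with vertical scatter added for legibility. Black bars are list medians, from -0.51 for the other kallikreins to -0.09 for the kallikreins and Spink5, and dashed lines mark 2-fold. Genes past 2-fold carry their names.

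Defining markers of keratinocytes, the labelled tissue, were bright. All 14 keratinocyte markers with a probe were measured on both arrays and within 2-fold, with a median of -0.15. Before scaling, their summed signal was 430110 on the control and 453480 on the knockout array, and Krt5 read 52200 and 54400. Markers of some other cells and structures differed between the arrays: 3 of 3 measured melanocyte genes, 4 of 6 skeletal muscle genes, 4 of 4 red blood cell genes and 4 of 4 inner root sheath genes were at least 2-fold lower, and 4 of 9 hair shaft genes higher. The lists' summed signals on the control and knockout arrays, also before scaling, were 1790 and 493 for melanocytes and 1218 and 451 for muscle. They were 18372 and 2146 for red blood cells, 31270 and 14680 for the inner root sheath, and 7955 and 12520 for the hair shaft. A sum can rest mostly on 1 bright probe, as Dct gave 1470 and 393 of the melanocyte sums. Of the Langerhans cell genes 1 of 6 was higher, Cd207, at 166 and 608. None of the measured sebaceous gland, fibroblast, T-cell or mast cell genes was past 2-fold (7, 5, 5 and 2 genes), and no endothelial gene was measured on both arrays. Of the endothelial genes, Emcn, measured on the control array alone at 55.6, was at least 5.36-fold lower. Tek went the other way, measured on the knockout array alone at 19.2 and at least 1.30-fold higher. The other 3 endothelial genes were measured on neither array. By such bounds 1 more melanocyte gene and 2 more muscle genes were at least 2-fold lower. The part of these cells in the differences above was not tested. In bulk epidermis, fewer cells of a type and less RNA per cell cannot be told apart.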

How the data were processed

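Epidermal RNA of 1 control and 1 knockout sample was hybridised to 2 arrays. Per the file headers, the deposited intensity values were made with Agilent Feature Extraction 10.7.3.1, which subtracted background and detrended each array; the grid was built on mm9. The authors also deposited log2 values, centred per probe (Pearson r of 1.00 with the scanner differences across probes, median offset -0.01); the sources used here do not say how, and no level can be had from them.

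Control spots and spots marked as outliers were removed, the spots of each probe were averaged, and signals were scaled to the 75th percentile of each array. Probes were named through RefSeq accessions (GRCm38.p6, names and order only), which named 26690 of 41174 (64.8%). A gene was represented by its brightest probe. The share of probes well above background was 56.2% for control and 56.3% for knockout, and no non-control spot was saturated. The number of arrays limits the precision. Replicate spots of 153 other probes gave a median SD of the log2 difference of 0.12.

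Named genes were all members and the protease, inhibitor and substrate genes past 2-fold, with exceptions said in the text, and marker lists are given by counts and sums. Members and lists were chosen with earlier results of these data known. No gene was named for a like pattern, since 2 arrays give 1 difference. The calling code was tested on simulated data. The settings varied were median scaling, loess, quantile normalization, normexp (offset 50, on median signals, without spots marked as non-uniform), subtraction of local medians, the mean over probes, the authors' table, other thresholds and other filters. Python 3.11.15, pandas 2.3.3, numpy 2.4.6, matplotlib 3.10.9, R 4.3.3 and limma 3.58.1 were used.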

Additional observations from a re-analysis of the deposited data

How the results depend on the processing

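No paired analysis was possible because there is only 1 array of each genotype. Klk4 was past 2-fold in every scaling, from 1.63 under normexp to 3.74 under median scaling, and no other measured member was past 2-fold in any of them. Median scaling moves every gene by 0.32, so the signs of Klk5, Klk7, Klk11 and Spink5 depend on scaling. Over all settings, Spink5 ranged from -0.13 to 0.27, the highest with the median of surrounding spots subtracted. Klk7 ranged from -0.27, with its probes averaged, to 0.27, with the median of adjacent spots subtracted. Klk10, at -0.03 with median scaling, was above 0 only with the median of surrounding spots subtracted (0.022, or 0.014 with adjacent spots). Klk6 stayed below 0, from -0.42 to -0.09, and Klk8 above 0, from 0.14 to 0.47.

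In order, values are for the members, other kallikreins, other proteases, other inhibitors and the list of substrates and related genes, called substrates below. Under median scaling the medians were 0.23, -0.19, 0.20, -0.030 and 0.22, with 953 of all genes higher and 295 lower, against 375 and 546. The proteases then had 1 gene higher and 0 lower, and Nfkbiz was at -0.72. Subtracting the median of spots within 3 rows and 3 columns gave medians of 0.23, -0.20, 0.15, -0.092 and 0.17, 819 genes higher and 349 lower, 0 proteases lower, and Nfkbiz at -0.74. With adjacent spots only, the medians of members, other kallikreins and proteases were 0.26, -0.24 and 0.28, with 910 genes higher, 0 proteases lower, 1 inhibitor higher and Nfkbiz at -0.51. The other kallikreins had a median of -0.16 under both quantile normalization and loess, -0.29 and 0 genes higher under normexp, and -0.34 without genes that had at least 5 high or low neighbours, where 0 members were higher. The inhibitors had a median of -0.22 under loess. Normexp gave 182 genes higher and 235 lower.

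At 1.5-fold, 1255 genes were higher and 1637 lower, with 1 other kallikrein, 2 proteases, 7 inhibitors and 4 substrates lower and 3 proteases higher. At 3-fold the counts were 105 and 188, with 0 proteases lower. With genes measured on at least 1 array they were 566 and 825, with 1 other kallikrein lower and 2 inhibitors higher. With no filter on background they were 668 and 1421, with 1 member (Klk14, at background) and 1 other kallikrein lower, 2 inhibitors higher and a median of -0.39 for the other kallikreins. The cause of these shifts was not tested, beyond the filters and thresholds themselves. Single spots and 1 array per genotype limit every value here.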
